A study of Mus musculus with 6 samples.

Results

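The interleukins and their receptors were examined in sorted hair follicle (HF) stem cells (SCs) as all genes whose mouse symbol begins with Il and a digit, leaving out pseudogenes. The rule found 83 genes among the 43274 of the normalized count table. By textbook role they were divided into 37 ligands, 38 receptor chains, 6 antagonists, decoy receptors or binding proteins, and 2 genes of other kinds, the enzyme gene Il4i1 and Il1bos, an RNA antisense to Il1b. Receptors that bind interleukins but lack an Il symbol, such as Csf2rb, were not members and were kept in a separate pathway list.

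The libraries were made from bulge SCs, the CD34+ cells with high α6 integrin that were sorted by FACS from mouse epidermis at postnatal day 21. The 3 control libraries came from ILK fl/+ mice with K5-Cre, given as ILK +/- in the labels, and the 3 ILK-K5 libraries from ILK fl/fl mice with K5-Cre, given as ILK -/-. Both genotypes thus carried the Cre transgene, which is driven by the keratin 5 promoter, a promoter of basal epithelial cells. The mouse lines had a mixed C57Bl6-129/Sv background. ILK is integrin-linked kinase, an adaptor at integrin adhesions.

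Interleukins are secreted signals that leukocytes and epithelial cells use to start, direct and limit inflammation, and in skin they pass between keratinocytes, macrophages, dendritic cells and T cells. Those of the IL-1 family act through paired immunoglobulin-type receptor chains and NF-kB, and are held back by a receptor antagonist and a decoy receptor. Those of the common γ chain, IL-10 and IL-6 families act through receptor chains bound to Jak kinases, which activate Stat factors. The response of a cell depends on the receptor chains it carries, so ligands and receptors were taken apart.

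Each library held between 8228019 and 11969072 reads on genes, and 1 read was worth between 0.726 and 1.52 normalized counts. The bulge SC label was checked against 9 bulge markers, all of which passed the filter on low values, with a summed level of 46131 to 110073 normalized counts in controls and 23617 to 50600 in ILK-K5, and 1 of them, Cd34, was called lower, that is, at a limma adjusted p of at most 0.05 over all tested genes. None of 8 basal keratinocyte markers was called, with a summed level of 109789 to 209898 in controls and 76853 to 116588 in ILK-K5. Of 7 tested markers of differentiated keratinocytes 1 was called lower, with a sum of 3949 to 21260 against 4691 to 7576. The libraries also differed in leukocyte transcripts. All 5 leukocyte markers were called higher in ILK-K5, with a summed level of 36.5 to 97.96 in controls and 2445 to 3466 in ILK-K5, and 13 of the 14 tested macrophage markers were called higher, with a sum of 617 to 1118 against 14290 to 21602. C1qa, C1qb, Fcgr1, Cd14 and Aif1 had at most 3 reads in every control library. Lists of other skin cells differed as well. Fibroblast markers had a sum of 703 to 779 against 1532 to 2493, and 1 of 4 tested, Col3a1, was called higher. Melanocyte markers had a sum of 679 to 1308 against 268 to 477. Of the 5 tested, 1, Mitf, was called lower, whereas DESeq2 called 1 of the 5 higher. The targeted gene Ilk had 10.6, 16.7 and 38.5 normalized counts in controls and 14.8, 30.9 and 29.2 in ILK-K5, and since 89.7% of its exon bases are shared with other genes in the annotation, mostly with Taf10, it could not check the genotypes.

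The start regions of 3 genes that rose are shown because these genes carry the result in the ligands, the antagonists and the receptors. Each run covers 250 bases before to 50 after the RefSeq start on GRCm38.p6 and reads 5′ to 3′ on the gene's own strand. The run of Il1b lies on the minus strand at chr2:129371090-129371389, that of Il1rn on the plus strand at chr2:24336610-24336909, the first of its 3 listed starts, and that of Il7r on the minus strand at chr15:9529827-9530126. Capitals mark a TATAAA match in Il1b, an AP-1 match (TGANTCA) in Il1rn, and in Il7r a C/EBP match (TTGCNNAA) followed by a Stat match (TTCNNNGAA).
Il1b: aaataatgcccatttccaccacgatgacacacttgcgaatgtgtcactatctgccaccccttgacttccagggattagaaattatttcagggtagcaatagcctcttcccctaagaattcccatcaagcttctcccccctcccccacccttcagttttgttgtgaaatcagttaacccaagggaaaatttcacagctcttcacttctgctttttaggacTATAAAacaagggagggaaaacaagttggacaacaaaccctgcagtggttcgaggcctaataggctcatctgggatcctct
Il1rn: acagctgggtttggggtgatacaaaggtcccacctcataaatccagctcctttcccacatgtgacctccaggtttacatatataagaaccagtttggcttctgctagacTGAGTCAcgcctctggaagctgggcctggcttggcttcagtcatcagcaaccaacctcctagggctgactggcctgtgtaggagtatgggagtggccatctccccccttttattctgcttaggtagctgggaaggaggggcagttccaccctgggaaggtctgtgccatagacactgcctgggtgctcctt
Il7r: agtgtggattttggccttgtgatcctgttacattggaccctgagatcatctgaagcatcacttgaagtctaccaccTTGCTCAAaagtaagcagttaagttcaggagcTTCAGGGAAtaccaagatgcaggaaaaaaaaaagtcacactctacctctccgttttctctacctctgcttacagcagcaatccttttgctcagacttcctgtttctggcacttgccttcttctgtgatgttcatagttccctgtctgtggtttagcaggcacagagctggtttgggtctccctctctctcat

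The TATAAA of Il1b began 31 bases before the start, the AP-1 match of Il1rn 141 bases before it, and the C/EBP and Stat matches of Il7r 174 and 142 bases before it. Both strands were searched. In all, 66 members had a start region in the RefSeq table, among them 5 of the 6 genes called higher (none for Il10ra). A gene was counted as holding a motif where any of its listed start regions held it, among members and among all 27025 genes of the table alike. The AP-1 letters were in 14 of the 66 members, in 1 of the 5 called genes and in 8.97% of all genes. The C/EBP letters were in 15 members, in 1 of the 5 and in 12.2% of all genes, and the Stat letters in 11 members, in 1 of the 5 and in 9.55% of all genes. TATAAA was in 13 members, in 2 of the 5, Il1b and another start of Il1rn, and in 15.7% of all genes. The PU.1 letters GAGGAAG were in 9 members, in none of the 5 and in 15.4% of all genes, and an NF-kB motif was in 7 members, in 1 of the 5, Il4ra, and in 5.14% of all genes. No motif searched was thus in more than 2 of the 5. A match in these windows is a description of the letters only.

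Of the 83 genes, 48 averaged 10 or more normalized counts over all 6 libraries and were tested, namely 13 ligands, 28 receptors, 5 antagonists, decoys or binding proteins, and both other genes. Genotypes were compared with limma on log2(normalized count + 1), and a gene was called at a Benjamini-Hochberg adjusted p of at most 0.05 over all 16368 genes tested. In ILK-K5, 6 genes rose, the ligand Il1b, the receptors Il7r, Il21r, Il4ra and Il10ra, and the receptor antagonist Il1rn, which is 12.5% of the tested members beside 2.93% of all tested genes called higher. None was called lower, where 0.599% of all tested genes were. The count of genes called lower was also 0 by edgeR and by DESeq2, and 1 tested member, Il31ra, was lower at an unadjusted p under 0.05, while 10 members in all passed that mark. The 3 ILK-K5 libraries lay above all 3 control libraries for 11 tested members (22.9%, beside 10.9% of all tested genes) and below them for 3 (6.25%, beside 6.95%), and the genotypes overlapped for the other 34. Among those above, Il21r, Il10ra, Il2rb and Il18rap averaged under 10 in controls and passed the filter only through their ILK-K5 values. Among those below, Il34 passed it only through its control values. The shares were not tested.

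The roles differed in their medians. The median log2 fold change, ILK-K5 minus control, was 0.49 over the 28 tested receptors, of which 22 were positive, and −0.42 over the 13 tested ligands, of which 4 were positive, beside a median of 0.01 over all tested genes. Over the 5 antagonists, decoys and binding proteins it was 0.20. These are descriptions of lists and were not tested as such.

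**Figure D1:**
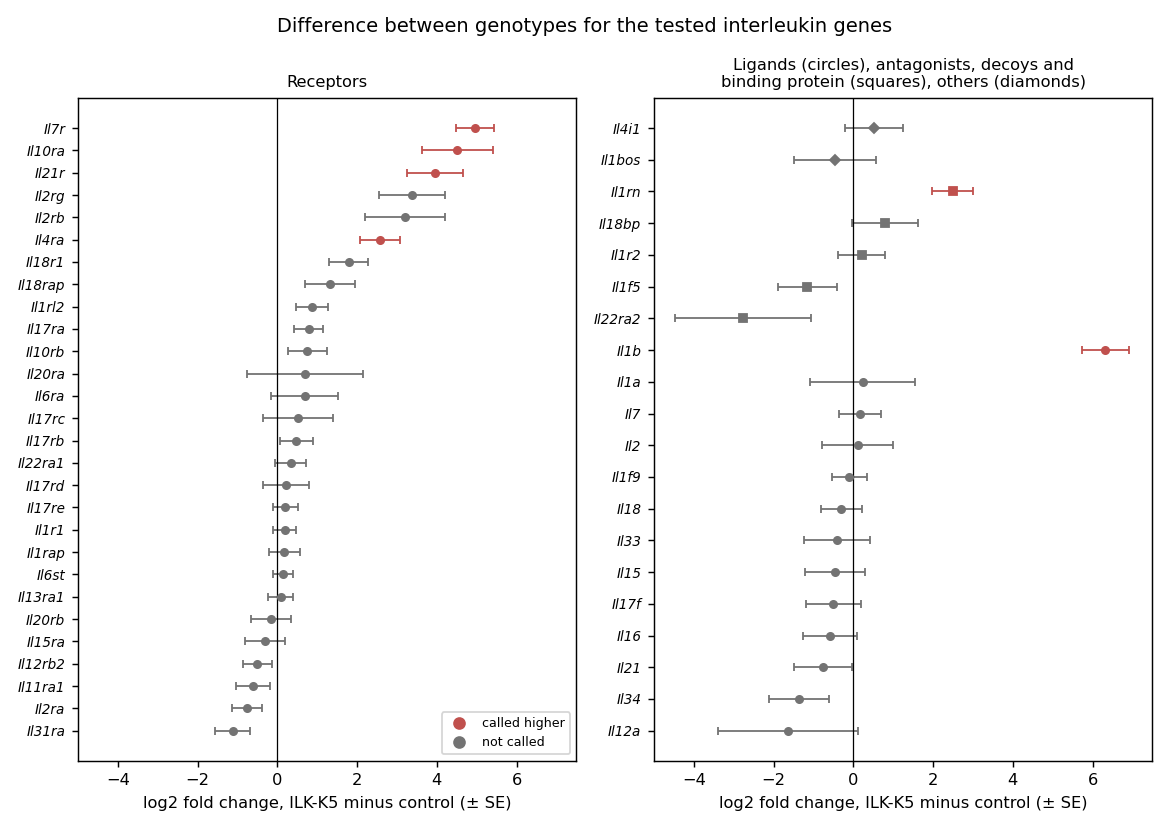
Log2 fold change, ILK-K5 minus control, of the 48 tested interleukin genes on the log2(normalized count + 1) scale, with bars of 1 standard error (limma, n = 3 and 3), receptors at the left and all other roles at the right. The 6 called genes are red. Il1b lies farthest from 0 at 6.31, and 4 of the 6 red points are receptors.

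Il1b, which encodes interleukin-1β, an alarm cytokine that is made as an inactive precursor, showed the largest change of any tested member. It had 4.82, 25.8 and 30.5 normalized counts in the control libraries and 1563, 1318 and 1195 in the ILK-K5 libraries. All 3 ILK-K5 libraries thus lay far above the highest control. The log2 fold change was 6.31 ± 0.59 (SE, n = 3 and 3; limma, adjusted p = 0.000578), and the ratio of the means was 66.7. The call held when any single library was left out. Bulk libraries cannot tell fewer cells of a type from less RNA per cell, so a difference in level here may be either. The macrophage and leukocyte markers given above were higher in the same 3 libraries, and their part in this and the following differences was not tested.

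Il1rn encodes the IL-1 receptor antagonist, which occupies the IL-1 receptor without activating it. It had 141, 511 and 657 normalized counts in controls and 2287, 2067 and 1801 in ILK-K5. The genotypes did not overlap, although the control libraries differed among themselves by more than the ILK-K5 libraries did. The log2 fold change was 2.49 ± 0.51 (limma, adjusted p = 0.0299). The call was lost without control 2 or without any of the ILK-K5 libraries, where the adjusted p lay between 0.0755 and 0.103, and with edgeR on the recovered reads (adjusted p = 0.0504).

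The receptor chains of Il1b itself overlapped between genotypes. Il1r1, the signalling receptor, had 623, 631 and 386 normalized counts in controls and 623, 582 and 613 in ILK-K5. Il1rap, the chain that pairs with it, had 85.9, 216 and 151 against 198, 153 and 134. Il1r2, the decoy receptor that binds IL-1 without signalling, had 43.4, 201 and 240 against 179, 151 and 120. None of these 3 was called. The other IL-1 ligand, Il1a, had 0, 50.2 and 13.8 normalized counts in controls and 5.69, 10.03 and 15.6 in ILK-K5, and was not called either; 11.2% of its exon bases are shared with a gene on the opposite strand. Il1bos, which overlaps Il1b on the opposite strand over 1.31% of the exon bases of Il1b, had 2.18 to 31.8 against 2.28 to 12.3 normalized counts and was not called.

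**Figure D2:**
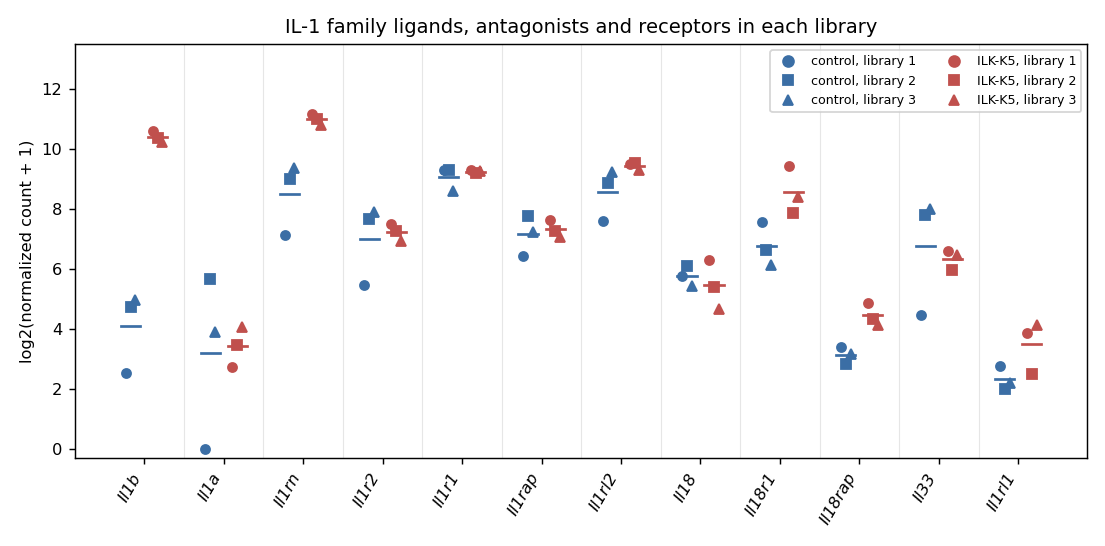
Expression of 12 genes of the IL-1 family in each library as log2(normalized count + 1), with blue marks for the 3 control and red marks for the 3 ILK-K5 libraries, marker shapes for the library number and lines for the genotype means. Il1b and Il1rn are apart between genotypes, whereas Il1r1, Il1rap and Il1r2 overlap.

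Among the other IL-1 family genes, the receptor chains of IL-18 and the IL-36 receptor chain Il1rl2 lay higher in all ILK-K5 libraries but were not called. Il18r1, the binding chain for IL-18, had 187, 97.3 and 69.7 normalized counts in controls and 692, 232 and 335 in ILK-K5 (log2 fold change 1.79 ± 0.49; limma, adjusted p = 0.0983). It was called with DESeq2 (adjusted p = 0.0167) and without control 1 (limma, adjusted p = 0.0401). Its partner chain Il18rap had 9.65, 6.08 and 7.98 against 28.5, 19.3 and 16.6 (1.32 ± 0.62; limma, adjusted p = 0.453). Il1rl2, the receptor for the IL-36 cytokines, had 195, 470 and 601 against 724, 746 and 629 (0.87 ± 0.40; limma, adjusted p = 0.439), and there the highest control and the lowest ILK-K5 library lay close together.

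The epithelial ligands of the family did not share this pattern. Il18, whose product keratinocytes store as a precursor, had 53.1, 66.9 and 42.1 normalized counts in controls and 78.6, 40.9 and 24.4 in ILK-K5. Il1f9, the older symbol of IL-36γ, had 50.2, 51.7 and 71.8 against 35.3, 68.6 and 61.4. Il33, a nuclear alarmin of epithelial cells, had 21.2, 220 and 253 against 95.6, 60.9 and 86.7, so that control 1 lay below every other library. None of the 3 was called. Of the 20 genes assigned to the IL-1 family, 14 were tested, 2 rose and none was called lower.

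The second group with calls was the common γ chain family, the receptors that lymphocytes use for growth and survival signals. Of its 17 genes, 12 were tested, and 3 receptor chains rose, Il7r, Il21r and Il4ra. Il7r, which binds IL-7 and TSLP, had 11.6, 13.7 and 7.98 normalized counts in controls and 653, 296 and 255 in ILK-K5. Its lowest ILK-K5 library lay far above its highest control. The log2 fold change was 4.96 ± 0.47 (limma, adjusted p = 0.000607), and the call held without any single library.

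Il21r, which binds IL-21, had 4.82, 4.56 and 1.45 normalized counts in controls and 114, 75.6 and 33.1 in ILK-K5. The control values stand on 5 reads or fewer in each library. The log2 fold change was 3.96 ± 0.70 (limma, adjusted p = 0.0148), and the adjusted p rose to 0.0955 without ILK-K5 1 and to 0.112 without ILK-K5 2. Il4ra, the chain shared by the receptors for IL-4 and IL-13, had 21.2, 48.7 and 82.0 normalized counts in controls and 338, 275 and 203 in ILK-K5. The log2 fold change was 2.57 ± 0.50 (limma, adjusted p = 0.0234). Without control 2 or any of the ILK-K5 libraries its adjusted p lay between 0.0620 and 0.1045, so the call rests on those 4 libraries. Of its exon bases, 9.51% are shared with a gene on the opposite strand. Il4ra and Il21r are neighbours on chromosome 7, between 125552120 and 125633570 on GRCm38, and this was the only one of 13 groups of members lying within 300 kb of each other in which all tested genes rose.

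Il2rg, the γ chain itself, had 1.93, 27.4 and 21.8 normalized counts in controls and 89.9, 150 and 153 in ILK-K5. The genotypes did not overlap, yet the gene was not called (log2 fold change 3.38 ± 0.82; limma, adjusted p = 0.0624). It was called with DESeq2 (adjusted p = 0.000910) and without control 1, its lowest library (limma, adjusted p = 0.0204), but not with edgeR (adjusted p = 0.0802). Of its exon bases, 30.5% are shared with another annotated gene on the same strand. Il2rb, the chain for IL-2 and IL-15, had 0.965, 0 and 8.71 normalized counts in controls and 20.5, 15.4 and 40.9 in ILK-K5 (3.20 ± 0.99; limma, adjusted p = 0.158). Il2ra, the high-affinity chain for IL-2, went the other way, with 122, 94.3 and 79.1 in controls and 69.4, 50.1 and 52.6 in ILK-K5 (−0.76 ± 0.38; limma, adjusted p = 0.495). Neither of these was called, although for both chains the libraries of the genotypes did not overlap.

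The ligands of the receptors that rose were low. Il7 had 25.1, 35.0 and 16.0 normalized counts in controls and 33.0, 21.6 and 28.2 in ILK-K5 and was not called. Il21 had 27.0, 12.2 and 10.9 against 17.1, 6.17 and 5.84 and was not called, with 8.92% of its exon bases shared with another gene. Il4 fell below the filter, with 0, 0 and 8.71 normalized counts in controls and 13.7, 10.8 and 10.7 in ILK-K5. Il13 also fell below it, with at most 2.90 normalized counts in any library. Il13ra1, which joins Il4ra to form a receptor for IL-4 and IL-13, was among the highest receptors in both genotypes, with 707, 1411 and 1304 against 1025, 1075 and 1409 normalized counts, and was not called.

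**Figure D3:**
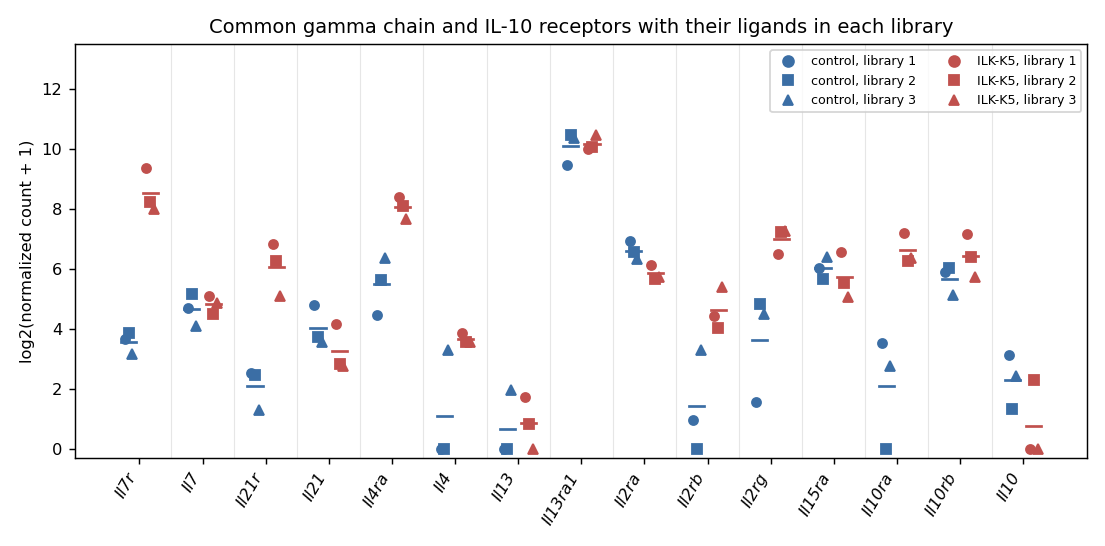
Expression of the common γ chain and IL-10 receptors and of their ligands in each library as log2(normalized count + 1), with blue marks for the 3 control and red marks for the 3 ILK-K5 libraries and lines for the genotype means. Il7r, Il21r, Il4ra and Il10ra lie apart between genotypes, while their ligands are low, with Il7, Il21, Il13 and Il10 overlapping and Il4, below the filter, higher in each ILK-K5 library.

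Il10ra, the binding chain for the anti-inflammatory cytokine IL-10, was the remaining receptor that rose. It had 10.6, 0 and 5.80 normalized counts in controls and 147, 76.4 and 81.8 in ILK-K5 (log2 fold change 4.52 ± 0.90; limma, adjusted p = 0.0261). Without any one of the ILK-K5 libraries the adjusted p was between 0.0948 and 0.121, and with a pseudocount of 0.1 it was 0.120. Its partner chain Il10rb had 57.9, 63.9 and 34.1 against 143, 82.5 and 51.6 and was not called, and 14.9% of its exon bases are shared with another gene. Il10 itself did not pass the filter, with 7.72, 1.52 and 4.35 normalized counts in controls and 0, 3.86 and 0 in ILK-K5.

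Markers of the cells that carry these receptors differed unevenly. Of the 6 tested T cell markers, 1, Cd4, was called higher, and the T cell sum was 250 to 392 normalized counts in controls and 658 to 848 in ILK-K5. DESeq2 called 2 of the 6 higher, and 5 had an unadjusted p under 0.05 by limma. Of 7 markers for innate lymphoid or natural killer cells, 4 were tested, none was called higher and 1, Id2, was called lower. DESeq2 called 1 of the 4 higher, and all 4 had an unadjusted p under 0.05 by limma, in either direction. Ncr1 and Gzmb had at most 3 reads in every library. The sum of this list, 3887 to 4382 in controls and 1608 to 2056 in ILK-K5, thus came from its other genes. It was not taken as a level of these cells. Of the 8 Langerhans or dendritic cell markers, 4 were called higher, with a sum of 538 to 1508 against 17810 to 33224. For neutrophils 2 of 4 tested markers were called higher, with a sum of 33.5 to 56.9 against 219 to 298, but Ly6g was at 0 in every ILK-K5 library. Among mast cell markers 5 of 6, all but Kit, were at or under 3 reads in every library. Their sum was 0 to 3.04 in controls and 20.1 to 23.4 in ILK-K5, with 0 called higher by limma and 1 by DESeq2. The part of these cells in the receptor differences was not tested.

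The 2 other tested members whose libraries did not overlap lay lower in ILK-K5. Il31ra, a receptor chain for the itch cytokine IL-31 that keratinocytes also carry, had 632, 645 and 1170 normalized counts in controls and 188, 410 and 595 in ILK-K5 (log2 fold change −1.12 ± 0.44; limma, adjusted p = 0.312). Il34, a ligand of the macrophage receptor Csf1r that keratinocytes make, had 11.6, 18.2 and 61.7 against 5.69, 11.6 and 9.74 (−1.36 ± 0.75; limma, adjusted p = 0.577). Neither passed the test. For Il34 the lowest control and the highest ILK-K5 library both rounded to 11.6, a near tie, and the spread among controls was wider than the gap between genotypes.

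Levels of different genes were compared per length, as FPKM. Among the ligands, only Il18 and Il1f9 reached at least 1 FPKM in every control library, and Il1b and Il33 did so as well in every ILK-K5 library. Il1b had 1.10 ± 0.74 FPKM in controls and 73.1 ± 10.1 in ILK-K5 (SD, n = 3). It thus made up between 73.5% and 74.8% of the summed FPKM of all ligands in each ILK-K5 library. In controls the leading ligand was Il18 in libraries 1 and 2 and Il33 in library 3, with between 27.0% and 29.0% of the sum. The 5 ligands with the highest mean FPKM were Il1b, Il18 (7.76 ± 1.79 and 6.88 ± 3.99 FPKM in controls and ILK-K5), Il33 (5.85 ± 4.45 and 2.88 ± 0.64), Il1f9 (3.60 ± 0.75 and 3.43 ± 1.09) and Il16 (2.46 ± 1.96 and 1.41 ± 0.87). Below Il1b neighbours in the order of ILK-K5 means did not differ by more than their summed SDs, and 17.4% of the exon bases of Il16 are shared with other genes.

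Among the receptors, 16 reached at least 1 FPKM in every control library and 23 in every ILK-K5 library. The genes that did so in every ILK-K5 but not in every control library were Il10ra, Il10rb, Il1rap, Il20ra, Il21r, Il2rg, Il4ra, Il6ra and Il7r. Il15ra and Il2ra did so in every control but not in every ILK-K5 library. Il11ra1, the receptor chain for IL-11, led in controls with 45.7 ± 23.02 FPKM (27.2 ± 5.49 in ILK-K5), although reads of this gene and its near-identical copy Il11ra2 may have been split. Il13ra1 had 31.5 ± 10.5 and 32.3 ± 5.76, and Il17ra, the common chain for IL-17 cytokines, 25.3 ± 9.44 and 43.7 ± 17.2. Il31ra had 22.8 ± 8.60 and 11.1 ± 5.71, and Il20rb, a chain for IL-19, IL-20 and IL-24, 12.8 ± 10.1 and 9.80 ± 3.05. With these spreads the first 4 receptors could not be put in a firm order in controls. None of the 5 was called. Il7r reached 12.8 ± 7.003 FPKM in ILK-K5 from 0.355 ± 0.0924 in controls, within the spread of Il31ra and Il20rb in the same libraries.

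**Figure D4:**
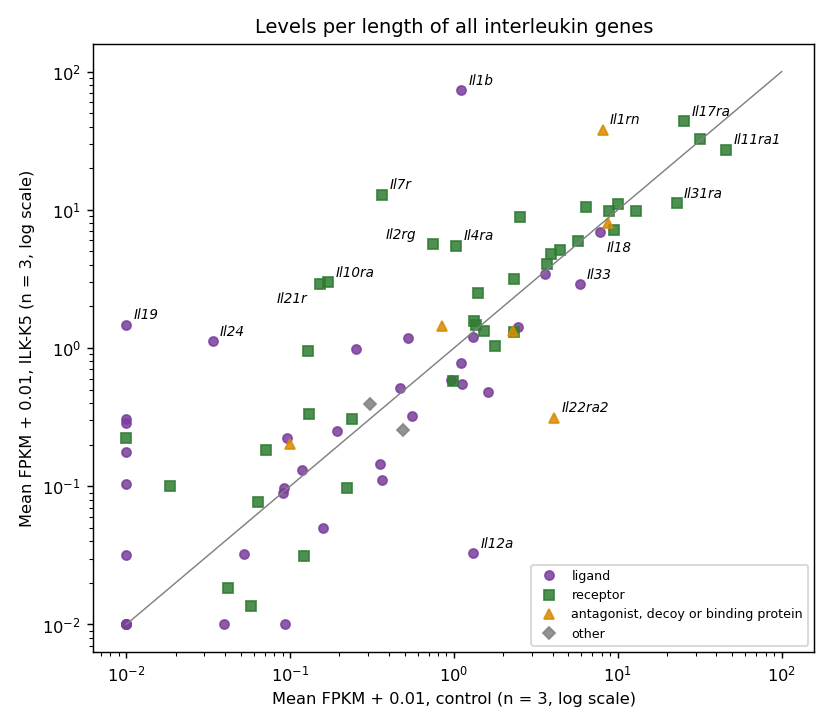
Mean FPKM + 0.01 of all 83 interleukin genes in the 3 control (horizontal) and 3 ILK-K5 libraries (vertical), both on log scales, with marks by role and a line of equal level. Il1b lies highest, with Il1rn, Il7r, Il4ra, Il2rg, Il10ra and Il21r well above the line, and most of the other receptors lie closer to it. Of the 28 tested receptors, 22 had a positive log2 fold change.

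A few members, picked out after their values were seen, stood apart in the replicate 1 libraries. The numbers in the sample descriptions differ between all replicates, but those of replicates 2 and 3 share their last digits and that of replicate 1 does not. Grouping replicates 2 and 3 by these digits was a choice made here, and their meaning is not stated. Il22ra2, the soluble binding protein for IL-22, had 0.965, 166 and 133 normalized counts in controls and 0, 8.48 and 13.6 in ILK-K5, so that replicate 1 was lowest in both genotypes. It was not called over all libraries (log2 fold change −2.77 ± 1.69; limma, adjusted p = 0.640), but it was called lower over replicates 2 and 3 alone (−3.66; limma, adjusted p = 0.0102) and without control 1 (−4.85; limma, adjusted p = 0.0459). Control 1 was also the lowest of all 6 libraries for Il6ra (22.2 normalized counts, against 162 to 275 elsewhere), Il20ra (0, against 22.8 to 92.2) and Il1r2. Il12a was at 64.6 in control 1 and at most 1.14 elsewhere.

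The 6 calls were therefore also read within these sets. Between the replicate 1 libraries alone, ILK-K5 minus control, the log2 difference was 8.07 for Il1b, 5.70 for Il7r, 4.30 for Il21r, 4.01 for Il1rn, 3.93 for Il4ra and 3.67 for Il10ra, with no test. Over replicates 2 and 3 it was 5.43 for Il1b (limma, adjusted p = 0.000787), 4.59 for Il7r (0.00352), 4.94 for Il10ra (0.0451) and 1.73 for Il1rn (0.0214). For Il21r it was 3.79 and for Il4ra 1.89, neither of which was called there (limma, adjusted p = 0.0550 and 0.0587). For all 6 genes every ILK-K5 library lay above every control library, so a positive sign in both sets was fixed in advance. The difference was wider in replicate 1 for 5 of them, the exception being Il10ra.

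The other 35 members lay below the filter. Of these, 24 were ligands, 10 receptors and 1 the decoy receptor Il13ra2. No read was listed in any library for Il1f10, Il17c, Il31 and Il3, and 13 members, these 4 included, had at most 3 reads in every library, which allows no statement beyond low or absent at this depth. The libraries of 6 of the 35 did not overlap, and these are named because of their values. Il19, an IL-10 family cytokine that acts on keratinocytes, had 0 reads in each control and 19, 8 and 22 in ILK-K5, at least 5.11-fold higher than the floor of 3 reads per library. Without the filter it was called (limma, adjusted p = 0.0393). Its neighbour Il24, in the same stretch of chromosome 1 between 130882074 and 131024974, had 1, 0 and 0 reads in controls and 5, 22 and 23 in ILK-K5, at least 4.68-fold higher. Il23a and Il27ra had 0 reads in every control and 3 to 7 in each ILK-K5 library, Il4 was given above, and Il9r was lower in ILK-K5, with 9, 3 and 4 reads in controls and 2, 1 and 0.

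The pathway list held 54 genes around the interleukins, namely partners without an Il symbol, proteins that process interleukins, and signal transducers. Of these, 50 were tested, 6 rose and none was called lower, and by DESeq2 10 rose and none was called lower. That is 12% of the tested genes beside 2.93% of all tested genes. The ILK-K5 libraries lay above all controls for 22 of the 50 (44%, beside 10.9% of all tested genes), and the median log2 fold change was 0.70, beside 0.01 over all tested genes. Osm and Nlrp3, both called, averaged 0.242 and 3.52 normalized counts in controls and passed the filter only through their ILK-K5 values. Among 11 tested partners, 4 rose. Csf1r, the receptor for IL-34 and also one of the macrophage markers above, had 58.9, 15.2 and 44.3 normalized counts in controls and 2747, 2390 and 1793 in ILK-K5 (6.01 ± 0.47; limma, adjusted p = 0.000298). Its ligand Il34 was not called, as given above.

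Csf2rb, the common β chain for IL-3, IL-5 and GM-CSF, had 11.6, 15.2 and 23.9 normalized counts in controls and 1494, 611 and 568 in ILK-K5 (5.55 ± 0.46; limma, adjusted p = 0.000363). Its close copy Csf2rb2, the chain specific to mouse IL-3, had 199, 155 and 72.6 against 792, 492 and 512 (2.15 ± 0.41; limma, adjusted p = 0.0208), and reads may have been split between these paralogs. The call of Csf2rb2 was lost without control 2 or any of the ILK-K5 libraries (limma, adjusted p between 0.0671 and 0.0866). All 4 common β chain members of the interleukin list, Il3, Il5, Il3ra and Il5ra, stayed below the filter. Osm, an IL-6 family ligand of myeloid cells, had at most 1 read in each control and 52.4, 177 and 108 normalized counts in ILK-K5, at least 35.0-fold higher than the floor (limma, adjusted p = 0.00162).

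Among 8 tested processing genes 2 rose, both from the pathway that releases mature IL-1β. Nlrp3, the inflammasome sensor, had 0, 9.12 and 1.45 normalized counts in controls and 52.4, 57.1 and 45.8 in ILK-K5 (4.17 ± 0.89; limma, adjusted p = 0.0356). Gsdmd, the pore-forming gasdermin D, had 27.0, 6.08 and 12.3 against 96.8, 94.9 and 66.2 (2.63 ± 0.59; limma, adjusted p = 0.0441). Both stood near the threshold and were not called by edgeR (adjusted p = 0.0714 and 0.0661), and they depended on single libraries. Nlrp3 lost its call without control 3 or any of the ILK-K5 libraries (limma, adjusted p between 0.0641 and 0.195), and Gsdmd without any library but control 1 (limma, adjusted p between 0.0730 and 0.219). None of the 16 tested genes of IL-1 and IL-17 signalling and none of the 15 tested Jak and Stat genes was called by limma, with 5 of each group at an unadjusted p under 0.05, and DESeq2 called 2 of the 16 and 1 of the 15 higher.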

How the data were processed

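RNA from sorted bulge SCs of 3 control and 3 ILK-K5 samples was amplified with Ovation RNA-Seq V2, made into libraries with Nextera XT and sequenced. Per the submitters' processing notes and the methods, reads were trimmed with flexbar, cleared of ribosomal RNA and aligned to GRCm38 with TopHat2 2.0.14 and Bowtie2 2.2.4. The counting program and its strand setting are not given in the sources used here, so reads on overlapping genes cannot be told apart. The authors deposited a signal table of normalized counts made with DESeq2 1.6.3, in which 100% of values were whole reads (within 0.001 of a read) divided by 1 size factor per library, and an FPKM table. The authors' own comparison, with log2 fold changes and p-values, was not used.

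Symbols and coordinates came from GENCODE M21, which matched 97.3% of 43274 genes, and start regions from RefSeq. Genotypes were compared by limma 3.58.1 (trend, two-sided) in R 4.3.3 on log2(normalized count + 1) for genes with a mean of at least 10. The added 1 understates the change of low genes. Benjamini-Hochberg adjustment ran over all 16368 genes. An exact permutation test of 3 against 3 cannot go below p = 0.1 and was not used. Alternatives were edgeR 4.0.16 and DESeq2 1.42.0 on recovered reads, other pseudocounts, filters and scalings, FPKM, a replicate block, a term for the description number and leaving out each library. The floor was 3 reads: a gene was at it where no library of the genotype held more. Floors cover counting error only.

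The text names called members, other tested members with separated libraries, the 5 ligands and 5 receptors highest in FPKM, partners of called members, called pathway genes and markers. Members and lists were chosen with earlier results of these data known. No source states that the libraries came from separate animals, so p-values measure the spread between these samples, which may be technical.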

Additional observations from a re-analysis of the deposited data

How the results depend on the processing

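Under DESeq2, the replicate block and the term for the description number, more genes passed the threshold: 772, 848 and 846 of all tested genes were higher, against 479, and 280, 269 and 286 lower, against 98. The pathway list then had 10, 11 and 12 genes higher, against 6. With the block 7 receptors were higher, against 4, and 9 members in all, against 6, with Il18r1, Il2rb and Il2rg added. Without the filter 2 ligands were higher, Il1b and Il19. The number of members called lower was 1 under the block (Il31ra), under the term and with replicates 2 and 3 alone (Il22ra2 in both), against 0.

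Leaving out 1 library gave 2 to 8 members higher, 0 to 1 lower, 1 to 6 receptors higher, 3 to 7 pathway genes higher, and 217 to 554 genes higher and 32 to 93 lower in all. Without ILK-K5 1 or ILK-K5 2 only Il1b and Il7r were called among members, and without ILK-K5 3 Il21r as well. Il1b and Il7r were called in every alternative run. A pseudocount of 0.1 lost Il10ra, edgeR and FPKM lost Il1rn, a mean of at least 50 left Il21r untested, and a pseudocount of 5 added Il2rg. No fold change printed for a gene reversed under any alternative. All these genes but Il22ra2 had separated libraries, so leaving out a library, another pseudocount or the block could not have turned their sign. The median of all genes moved to −0.10 without the filter. The causes were not tested.

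Same-numbered libraries deviated together with correlations of 0.529, 0.0198 and 0.307, so that not every pair exceeded 0.1, and not every library correlated best with its own number. Controls were littermates of ILK-deficient mice per the methods, but no source says which libraries share a litter or that a number marks one, so the samples were taken to share only a number. With the block the adjusted p (limma) was 0.00350 for Il18r1, 0.00323 for Il2rg, 0.0445 for Il2rb and 0.0295 for Il31ra. With 3 libraries per genotype and controls on a few reads for Il21r and Il10ra, smaller differences were out of reach.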
